A study of Homo sapiens with 11 samples.

Results

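The mRNAs described here encode 6 proteins of the NF-kB pathway, namely the feedback inhibitors NFKBIA and TNFAIP3, the transcription factor subunits NFKB1, REL and RELA, and the ubiquitin ligase BIRC3. They were chosen by gene name, with earlier results of these data known. Every peak that the authors' deposited tables of enrichment over input assign to these names was taken. This gave 17 peaks among 67083 peaks that name 6881 genes or gene combinations. NFKBIA and TNFAIP3 had 8 peaks each, spread over all 4 immunoprecipitates, and REL had 1 peak in 1 library. NFKB1, RELA and BIRC3 had no peak, so 3 of the 6 members are described only from clusters compared with IgG or from their absence.

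NF-kB is a family of dimeric transcription factors built from subunits such as NFKB1 (p105, processed to p50), RELA (p65) and REL (c-Rel). In resting cells inhibitors of the IkB family, NFKBIA (IkB alpha) among them, hold the dimers in the cytoplasm, and stimulation through receptors of TNF, interleukin 1 or bacterial products leads to degradation of the inhibitor. NFKBIA and TNFAIP3 (A20, a ubiquitin-editing enzyme) are themselves induced by NF-kB and shut the response down, and in monocytic cells this loop shapes inflammatory gene expression. ZFP36L2 belongs to the TIS11 family of zinc finger proteins, which recognise AU-rich elements in mRNA tails and speed up deadenylation and decay.

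The study mapped ZFP36L2 on RNA in MOLM13 and THP1, established human acute myeloid leukaemia lines of monocytic type, by eCLIP, in which ultraviolet light crosslinks protein to RNA and the fragments that come down with the antibody are sequenced. Each preparation started from untreated cells in standard growth medium, crosslinked with 400 mJ/cm2 at 254 nm, with no genotype or drug contrast between groups. Each line had 2 immunoprecipitates with an anti-ZFP36L2 antibody and 2 with control IgG, and the size-matched input, 2% of the lysate run over the same range of 30 to 105 kDa, was represented by 2 libraries in MOLM13 and 1 in THP1. For the 11 libraries the labels do not say whether replicates were separate cultures, so their spread may be technical only, and both THP1 replicates may share their input library.

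The lists held 140287 to 182486 clusters per immunoprecipitate, and the tables over input 14425 to 19325 peaks. Read depth is unknown, and 18.0% to 19.8% of the clusters of a list carried the same log2 fold over IgG, with medians over all clusters between −0.60 and 0.38. Of 10 myeloid marker genes, 5 had a cluster in both replicates of MOLM13 (CD33, LYZ, MPO, SPI1, CEBPA) and 6 in THP1 (CD33, LYZ, CSF1R, SPI1, CEBPA, ITGAM), while CD14, FCGR1A and LILRB4 did not have one in both replicates of either line. Of 13 markers of other lineages, KRT8 alone had clusters in both replicates of MOLM13 and none had them in THP1. A cluster in these lists need not exceed IgG, so by itself it does not show binding of ZFP36L2. It is also no measure of the amount of mRNA, and mRNA levels were not analysed here.

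A peak or cluster is called enriched below where the authors' log2 fold and −log10 p for it are both 3 or more. Values are the authors' own per-peak values, given for replicate 1 and then replicate 2. Positions are 1-based on hg38. Distances are counted in bases upstream of the gene's 3' end in RefSeq (GRCh38.p14), that end being base 1. With 2 replicates per line an exact permutation test between the lines cannot give a two-sided p below 0.333, so no difference between lines was tested.

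NFKBIA and TNFAIP3 had enriched peaks over input in all 4 libraries, and the other members had none in both replicates of any line. That makes 2 of the 5 members that had clusters. Among all protein-coding genes with a cluster in both replicates, 39% were called the same way in MOLM13, with a 95% Wilson interval of 38.0 to 40.0. For THP1 the share was 42.6%, with an interval of 41.6 to 43.6, and for all 4 libraries at once 36.9%. The count of members lies near this background. With 3' UTR peaks alone the background was 14% and 14.2%, and 11% for all 4 libraries, and with clusters enriched over IgG it was 18.6% and 29.6%, and the same 2 members were called under each rule. All 17 member peaks lay in 3' UTRs per the deposited annotation, where 16.1% to 22.8% of the peaks of a table lie.

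NFKBIA, the inhibitor that retains NF-kB in the cytoplasm, was bound at 2 sites at the very end of its mRNA. The gene (ENSG00000100906.10) lies on the minus strand of chromosome 14, from 35401513 to 35404749. Each of the 4 libraries listed exactly 2 clusters in its 3237 bases, and all 8 of these clusters were enriched over input and over IgG. Of all clusters in the lists, 5.11% and 2.49% were enriched over IgG in MOLM13, and 5.74% and 8.36% in THP1. The NFKBIA clusters covered between 5.04% and 5.84% of the gene. No other cluster was listed in the gene body on the sense strand, and none on the antisense strand.

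The upstream site of NFKBIA had the higher fold over input in 3 of the 4 libraries. Its peaks shared 74 bases across the 4 libraries (chr14:35401661-35401734), 149 to 222 bases upstream of the 3' end. MOLM13 gave log2 folds over input of 5.36 and 5.41 there, with a mean of 5.38 ± 0.036 (SD, n = 2). In THP1 they were 5.68 and 5.22, with a mean of 5.45 ± 0.32 (SD, n = 2). The values of MOLM13 fall between those of THP1, so the lines overlap. They exceed 82.6% to 87.8% of the 3' UTR peaks of their tables.

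The second NFKBIA site ended at the last bases of the annotated gene. Its peaks shared 78 bases (chr14:35401520-35401597), 8 to 85 bases upstream of the 3' end, and their starts on the genome agreed within 2 bases. MOLM13 gave log2 folds over input of 4.01 and 5.54, with a mean of 4.77 ± 1.08 (SD, n = 2). THP1 gave 4.46 and 4.81, with a mean of 4.63 ± 0.25 (SD, n = 2). This site was the higher one in MOLM13 replicate 2 only, where both sites differed by little. The gap between MOLM13 replicates was 1.53, against 0.051 at the upstream site of the same libraries.

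Over IgG the order of the NFKBIA sites was not the same in all libraries. The upstream site had log2 folds over IgG of 5.37 and 4.05 in MOLM13 and 4.43 and 4.80 in THP1. For the site at the 3' end MOLM13 gave 5.02 and 4.18, and THP1 gave 4.80 and 3.80. The upstream site was thus higher in replicate 1 of MOLM13 and replicate 2 of THP1 and lower in the other libraries. The −log10 p over IgG ranged from 5.78 to 17.9, so none of the 8 clusters lay close to the p threshold.

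**Figure D1:**
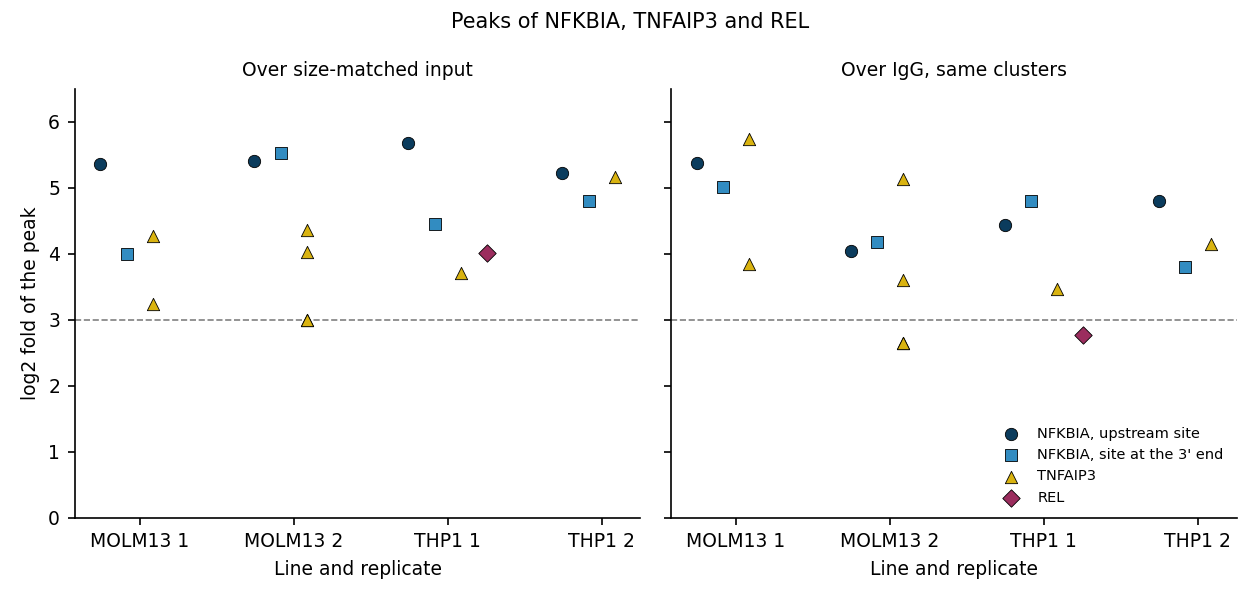
Log2 fold of the 17 member peaks over input (left) and over IgG (right) by line and replicate, with 1 point per peak and the threshold of 3 dashed; 2 TNFAIP3 peaks of MOLM13 replicate 2 coincide. All NFKBIA points lie between 3.80 and 5.68 on both scales, and the REL point and the coinciding TNFAIP3 points fall under the line over IgG.

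NFKBIA had few clusters, and they lay close to its end. Among protein-coding genes with a cluster, the median was 6 to 8 clusters per library, with no adjustment for gene length. Of the protein-coding genes with exactly 2 clusters in each replicate, 29 of 180 in MOLM13 and 47 of 297 in THP1 were enriched over input in both, NFKBIA among them. These are 16.1% and 15.8%, with 95% Wilson intervals of 11.5 to 22.2 and of 12.1 to 20.4. The NFKBIA peaks began 6 to 8 bases from the 3' end. Of the 3' UTR peaks lying wholly inside their annotated gene, at most 0.684% per library lay nearer to its end. Between 21.7% and 26.0% lay within 300 bases of it. These were 2341 to 2668 of 2914 to 3285 3' UTR peaks per library. Peaks that cross or pass the annotated end were left out, as were genes without a known strand, so these shares do not cover them.

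TNFAIP3, the enzyme that ends NF-kB signalling by editing ubiquitin chains, was bound in 1 stretch of its 3' UTR. The gene (ENSG00000118503.14) lies on the plus strand of chromosome 6, from 137866349 to 137883312. One cluster of each library covered an 82-base core (chr6:137882311-137882392), 921 to 1002 bases upstream of the 3' end. This is near the middle of the distribution of 3' UTR peaks lying wholly inside their annotated genes. Of those, 42.9% to 47.6% lay nearer to their gene's end. Of the 17 clusters listed in TNFAIP3 over the 4 libraries, 12 belonged to this stretch of 311 bases. The other 5 were found in 1 library each and had log2 folds over IgG of 0.0019 to 0.92.

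In MOLM13 the TNFAIP3 stretch was divided into touching clusters. In replicate 1 the main peak (chr6:137882255-137882404) had a log2 fold over input of 4.27 with a −log10 p of 40.6, the highest −log10 p of any member. Over IgG its log2 fold was 5.74, above 97.9% of the 3' UTR peaks of that table. A second peak of replicate 1 (chr6:137882138-137882193) had 3.25 over input and 3.85 over IgG and overlapped no peak of replicate 2.

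MOLM13 replicate 2 listed 4 TNFAIP3 peaks over input. The peak nearest the 3' end (chr6:137882308-137882409) had 4.03 over input and 5.14 over IgG, and its neighbour (chr6:137882262-137882307) had 4.37 and 3.60. The next stretch upstream was listed as 2 adjoining peaks of 33 bases (chr6:137882196-137882228 and chr6:137882229-137882261) with identical values, namely 3.0 over input and 2.65 over IgG. The fold of 3.0 was the lowest in that table, and over IgG both of them missed the thresholds, with a −log10 p of 2.996. Over IgG the cluster over the core was the highest of the stretch in both MOLM13 replicates, and over input the neighbour just upstream of it was higher in replicate 2.

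In THP1 the same core was listed as 1 peak per replicate. The log2 fold over input was 3.71 in replicate 1 and 5.16 in replicate 2 (mean 4.43 ± 1.03, SD, n = 2). Over IgG it was 3.46 and 4.16. The overlapping pair with the higher folds in MOLM13 had 4.27 and 4.37 over input (mean 4.32 ± 0.072, SD, n = 2). Its replicate 2 peak lies just upstream of the core. The MOLM13 pair over the core had 4.27 and 4.03 (mean 4.15 ± 0.17, SD, n = 2). The values of both pairs fall between those of THP1. The −log10 p over input was 6.71 and 10.5 in THP1, against 18.1 and more for the MOLM13 peaks over the core and the adjoining 46 bases. THP1 replicate 1 passed over IgG with a −log10 p of 3.04, just above the threshold.

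**Figure D2:**
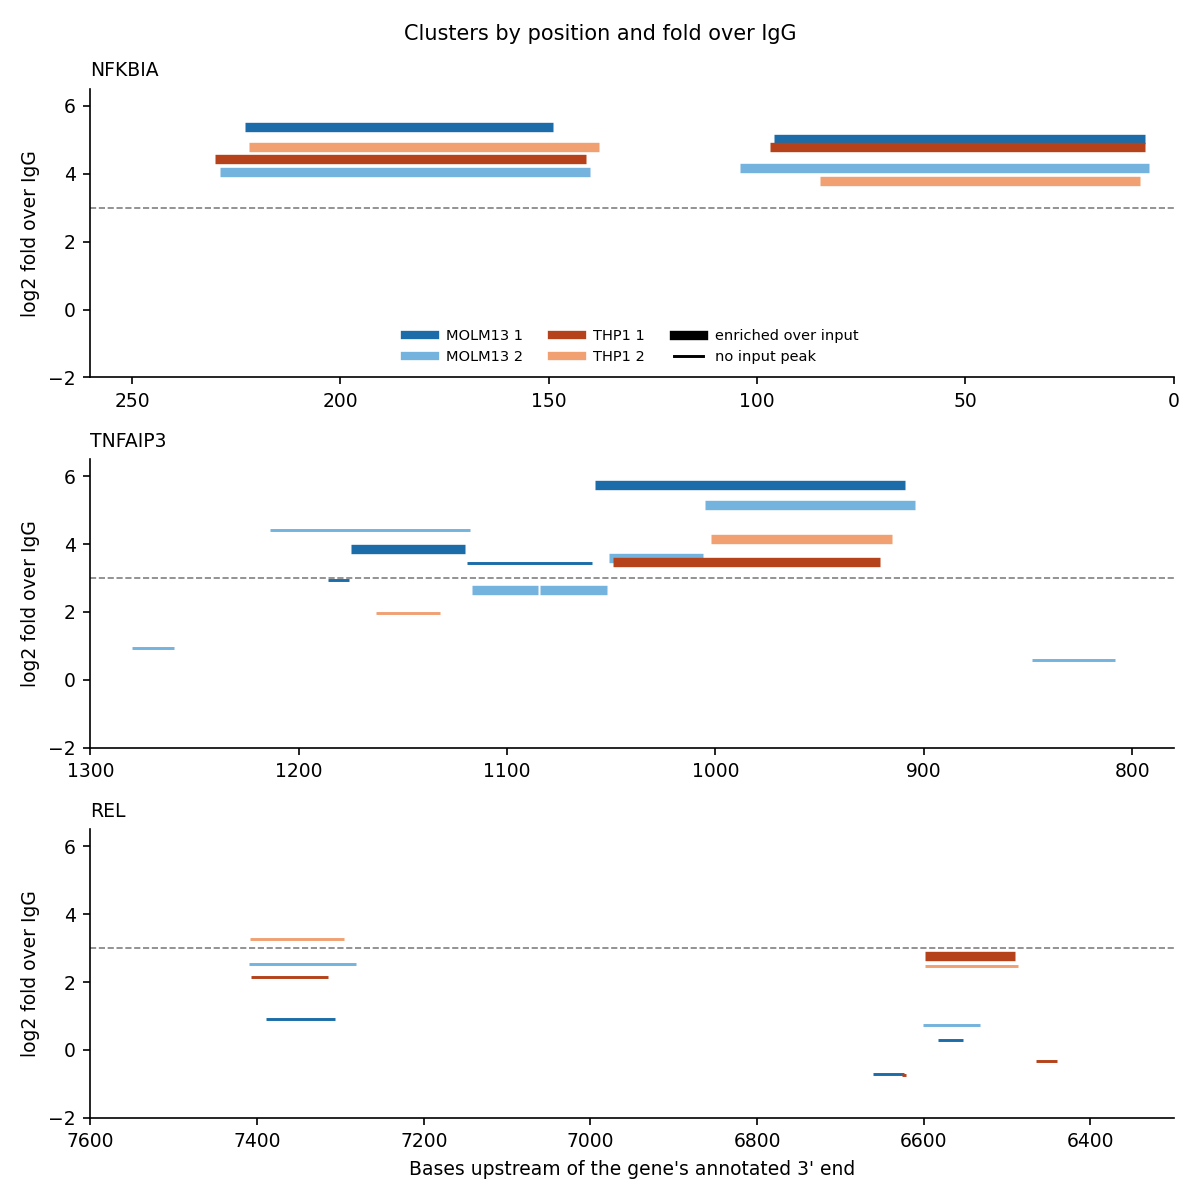
Clusters of NFKBIA, TNFAIP3 and REL by distance from the annotated 3' end (bases, 5' to the left) and log2 fold over IgG, coloured by library, with thick bars for clusters that are also peaks over input and the threshold of 3 dashed. NFKBIA shows 2 sites of 4 thick bars. TNFAIP3 has a core of thick bars in all 4 libraries between 921 and 1002 bases, with a flank of lower ones upstream. REL shows several sites, with 1 thick bar among thin ones.

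REL, the c-Rel subunit of lymphoid and myeloid cells, had 1 peak over input. The gene (ENSG00000162924.14) lies on the plus strand of chromosome 2, from 60881574 to 60931612. In THP1 replicate 1 the peak (chr2:60925014-60925122), 6491 to 6599 bases upstream of the 3' end, had a log2 fold over input of 4.01 with a −log10 p of 4.48. Over IgG it reached 2.77 with a −log10 p of 1.65 and was not enriched. THP1 replicate 2 listed a cluster at the same site with 2.46 over IgG, and MOLM13 had clusters there with 0.28 and 0.72, none of which was a peak over input. At this site both THP1 values over IgG were above both MOLM13 values. The site was picked by its THP1 peak, so this order is no support for a difference between lines, which was not tested. The MOLM13 replicate 1 value of 0.28 was the commonest fold of its list, carried by 19.3% of the clusters.

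In total REL had the most clusters of the members, although NFKB1 had more in MOLM13 replicate 2 (15 against 13). For REL the libraries listed 15 and 13 in MOLM13 and 28 and 15 in THP1, which is 71 clusters. Of these, 24 had a log2 fold below 0 and none was enriched over IgG. They fell into 35 sites, of which 7 had clusters in all 4 libraries. One of these, 7281 to 7410 bases upstream of the 3' end (chr2:60924203-60924332), had log2 folds over IgG of 0.92 and 2.53 in MOLM13 and 2.14 and 3.28 in THP1. The THP1 replicate 2 cluster was past the fold threshold but had a −log10 p of 2.54. Its clusters carry no gene or region name in the lists, and none was a peak over input.

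NFKB1 and RELA, which encode the p50 precursor and p65, had clusters but no enrichment. NFKB1, on chromosome 4 from 102501359 to 102617302, had 7 and 15 clusters in MOLM13 and 10 and 9 in THP1. The highest log2 fold over IgG in each library was 1.02, 1.10, 1.93 and 1.70. Below 0 lay 26 of the 41 clusters, 12 of them in MOLM13 replicate 2, where the median of all clusters was −0.60. Of the 19 NFKB1 sites, 5 had clusters in all 4 libraries. The site 29193 to 29266 bases upstream of the 3' end was the highest of these in MOLM13 replicate 2 (1.10) and THP1 replicate 1 (1.93). The sites 98 to 176 and 330 to 454 bases from the 3' end of NFKB1 had clusters in all 4 libraries too, with log2 folds over IgG from −1.74 to −0.039.

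RELA, on the minus strand of chromosome 11 from 65653601 to 65663857, had 9 and 5 clusters in MOLM13 and 5 and 3 in THP1. Of these 22 clusters, 11 lay below 0 over IgG, beside medians over all clusters of −0.60 to 0.38 per library. Only 1 of its 14 sites had clusters in all 4 libraries, 487 to 679 bases upstream of the 3' end (chr11:65654087-65654279). The highest cluster there had log2 folds over IgG of 0.16 and 2.26 in MOLM13 and 1.14 and 0.28 in THP1. The value of 2.26 in MOLM13 replicate 2 had a −log10 p of 0.94.

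BIRC3, the inhibitor of apoptosis protein cIAP2 that ubiquitinates RIPK1 at the TNF receptor, had no cluster in any of the 4 lists on either strand (chromosome 11, 102317484 to 102339403). No value over IgG can therefore be given for it, and whether the mRNA was present in these cells was not tested.

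**Figure D3:**
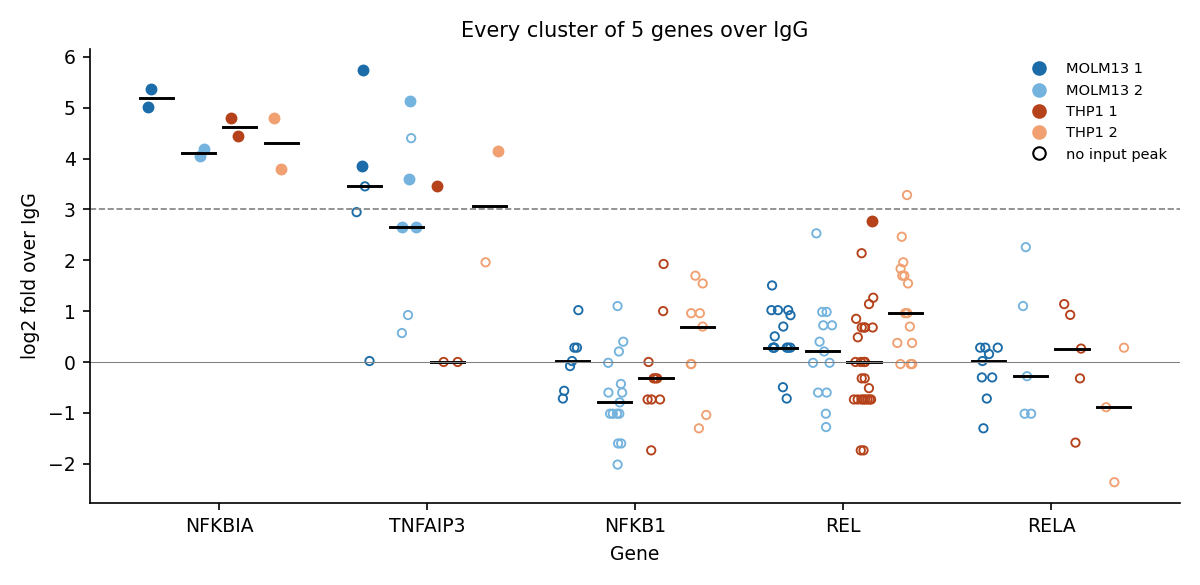
Log2 fold over IgG of every cluster in 5 genes (1 point per cluster) by library, filled where the cluster is also a peak over input; black bars are medians and the dashed line is the threshold of 3. All 8 NFKBIA clusters lie above the threshold, 8 of 17 TNFAIP3 clusters do and pass the p threshold too, and no cluster of NFKB1 or RELA reaches it.

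Counted over all members, 14 of the 17 peaks passed the IgG thresholds too. By library these were 4 of 4 and 4 of 6 in MOLM13 and 3 of 4 and 3 of 3 in THP1. Among all 3' UTR peaks of the same tables, 59% and 49.7% in MOLM13 and 54.6% and 65.1% in THP1 were enriched over IgG as well. The 3 peaks that missed were the REL peak and the adjoining TNFAIP3 pair of MOLM13 replicate 2. In each line 3 of the 4 replicate 1 peaks shared at least 1 base with one of replicate 2, where 78.4% of all peaks did in MOLM13 and 81.8% in THP1. The shares of replicate overlap lie near the background, and the shares past the IgG thresholds are above it in each library. These are few peaks, and peaks of 1 gene share their source, so the counts are a description with no test.

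Of 52 other pathway genes, namely receptors, adaptors, kinases, further subunits and inhibitors, and ubiquitin enzymes, clusters in both replicates were listed for 47 in MOLM13 and 46 in THP1. Over input, 15 in each line were called in both replicates, and 10 genes were common to both lines. The shares were 31.9% and 32.6%, beside 39% and 42.6% of all protein-coding genes, a difference that was not tested. Enriched clusters over IgG in both replicates were found for 6 of the 47 genes in MOLM13 and 13 of the 46 in THP1, beside 18.6% and 29.6% of all protein-coding genes. The leading overlapping pair of peaks lay in an intron for 9 of 14 such genes in MOLM13 and 9 of 15 in THP1, and in the 3' UTR for 5 in each line. The remaining THP1 gene, the receptor gene TLR2, had it in coding sequence.

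The adaptor gene TRAF2 had the highest folds of the pathway list, in an intron. MOLM13 showed log2 folds over input of 8.02 and 9.44 for it, and THP1 7.27 and 9.93. RNF31 and RBCK1 encode subunits of the complex that builds linear ubiquitin chains. RNF31 followed with 6.61 and 6.07 (MOLM13) and 7.05 and 7.13 (THP1), and RBCK1 with 5.47 and 5.66, and 6.94 and 5.66, all in introns. ITCH, a ubiquitin ligase that works with TNFAIP3, had 5.87 and 5.80 in MOLM13, and the kinase gene RIPK1 had 5.21 and 5.13, again in introns. In THP1 the deubiquitinase gene OTUD7B had 6.94 and 6.26 and COMMD1, a factor for RELA turnover, had 5.72 and 5.59. Over IgG, TRAF2 and RBCK1 were enriched at these peaks in both replicates of both lines. RNF31, ITCH and RIPK1 missed the IgG thresholds in at least 1 MOLM13 replicate.

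Of the pathway genes, OTULIN and TRAF3 had leading peaks in the 3' UTR in both lines, as NFKBIA and TNFAIP3 did. OTULIN removes linear ubiquitin chains, and its peak reached 3.74 and 3.60 over input in MOLM13, with 4.99 and 4.13 for THP1. For TRAF3, an inhibitor of the noncanonical arm, they were 3.27 and 4.04, and 4.84 and 4.16. Over input, the folds of NFKBIA at its upstream site, from 5.22 to 5.68, lay above all of these values. Folds at its 3' end site, from 4.01 to 5.54, overlapped them, as did the leading TNFAIP3 pairs, from 3.71 to 5.16. Over IgG, OTULIN exceeded the upstream NFKBIA site in MOLM13 replicate 2 (4.25 against 4.05) and THP1 replicate 1 (5.74 against 4.43). OTULIN was lower than that site in the other libraries. TRAF3, from 3.16 to 3.87 over IgG, stayed below that site in each library.

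Of 18 genes known as NF-kB outputs, 10 had clusters in both replicates in each line. Over input, 7 were called in both replicates of MOLM13 and 6 in THP1, which is 70% and 60%, beside 39% and 42.6% of all protein-coding genes. The leading pair lay in the 3' UTR in each case, and the background for 3' UTR peaks alone was 14% and 14.2%. Enriched clusters over IgG in both replicates were found for 1 of the 10 genes in MOLM13 and 3 of the 10 in THP1. No gene had them in both lines, and the background over IgG was 18.6% and 29.6%. The list was drawn up with earlier results of these data known, so its shares are no independent support for binding of such genes. In MOLM13 the chemokine genes CXCL8 (4.89 and 5.15) and CXCL2 (4.68 and 4.54) led, followed by IL1B (4.14 and 4.11), the transcription factor gene IRF1 (5.37 and 4.10) and the adhesion molecule gene ICAM1 (5.41 and 3.26). Over IgG only IRF1 of these 5 was enriched at that peak in both MOLM13 replicates, with 4.38 and 3.33. In THP1, IL1B (9.25 and 7.94), CXCL8 (9.15 and 7.72) and CXCL2 (7.08 and 6.87) were all enriched over IgG, whereas IRF1 (4.23 and 4.64) and the prostaglandin synthase gene PTGS2 (3.92 and 3.96) were not in both replicates.

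**Figure D4:**
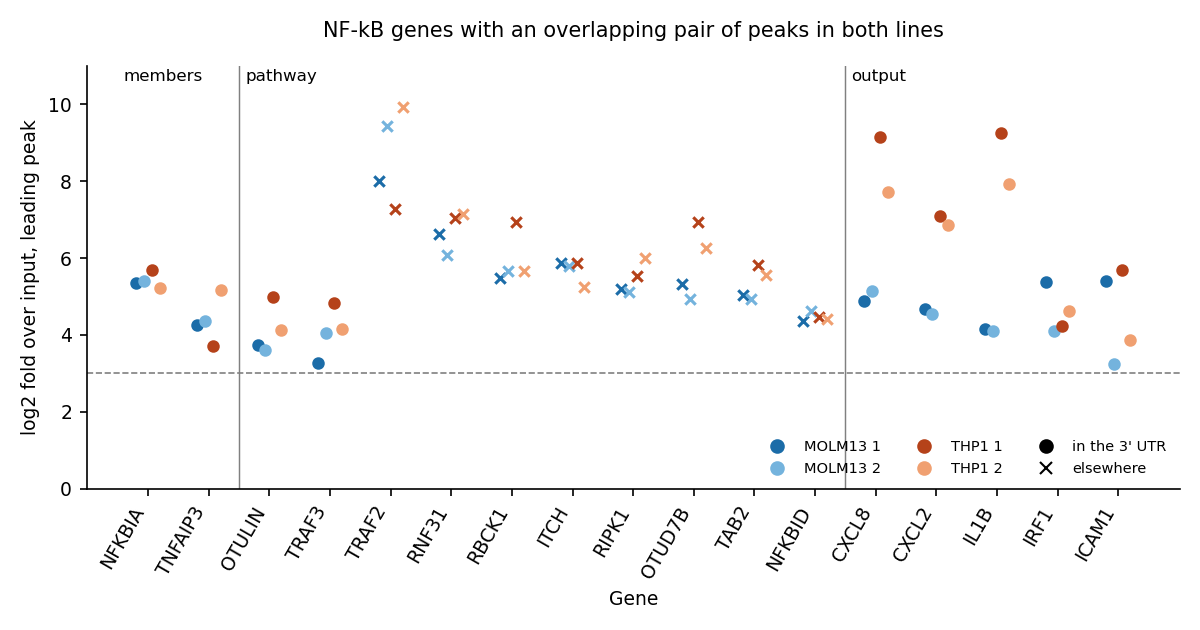
Log2 fold over input of the leading overlapping pair of peaks, 1 point per library, for the 2 members, 10 pathway genes and 5 output genes that had such a pair in both lines; circles mark pairs in the 3' UTR in both lines, crosses others. The intronic TRAF2 pair reaches 9.93 and the NFKBIA points stay between 5.22 and 5.68.

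Over the 4 leading 3' UTR folds, the gene nearest to NFKBIA and to TNFAIP3 among 9 candidates of these lists was IRF1, at a Euclidean distance of 2.04 and 1.36 log2 units. The values of IL1B, CXCL8 and CXCL2 were higher in both THP1 replicates than in both MOLM13 replicates. The same order held for pathway genes such as OTUD7B, RNF31 and OTULIN. Those of NFKBIA, TNFAIP3, IRF1, ICAM1 and TRAF2 overlapped between the lines. None of these differences was tested.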

How the data were processed

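ZFP36L2 eCLIP peaks of 2 immunoprecipitates per line were used as deposited. Per the file headers, the deposited input tables give the authors' log2 fold and −log10 p of the immunoprecipitate over input, with gene and region. The smallest values in the files show that only peaks with both at 3 or more are listed. The deposited IgG lists give the authors' log2 fold and −log10 p over IgG for every cluster, capped at 400. Peaks were called per immunoprecipitate. Tools named in the submitters' processing notes are STAR 2.5.0c, cutadapt 1.14, Picard 2.6.0 and edgeR, and builds are hg38, hg19 and GRCh37, with no role stated. The files' contigs are those of hg38. The sources used here do not give the peak caller, test or scaling.

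Input tables were tied to IgG lists by identical coordinates, with 19 to 30 peaks per table left untied and no member among them. Replicate peaks were matched by at least 1 shared base on the same strand, with functions tested on simulated data (Python 3.11.15, pandas 2.3.3). Of 6881 names, 6259 matched a RefSeq symbol of GRCh38.p14. Clusters were assigned to the 15842 of 20052 protein-coding genes whose strand is given; 7 pathway and 3 output genes (NFKBIE in both lists) and some markers without strand were counted on either strand. No test was run, since members and lists were chosen with earlier results of these data known. Named pathway genes are up to 5 per list and line with the highest lower-replicate fold over input, plus OTULIN, TRAF3 and TLR2, chosen after their values were seen. Wilson intervals cover counting error only. Alternatives were other thresholds, overlap, control and replicates. Site sequences are not printed, because no genome was used here.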

Additional observations from a re-analysis of the deposited data

Results flagged for a closer look

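The IgG lists held 2 TNFAIP3 clusters that were enriched over IgG although they are not peaks over input. In MOLM13 replicate 1 the cluster at chr6:137882194-137882254, between the listed peaks, had a log2 fold over IgG of 3.45 and a −log10 p of 5.67. In MOLM13 replicate 2 the cluster at chr6:137882099-137882195 had 4.40 and 7.03. Both lie in the flank upstream of the core. Over input they missed at least 1 of the thresholds of the deposited tables, and their fold there is not known. No such cluster was listed for the other members or for TNFAIP3 in THP1.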

How the results depend on the processing

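Of 50 alternative values for 12 results, 45 stayed within 1.5 times the reported count or within 1 SD of the reported fold. The counts are small, so a drop from 3 to 2 still falls within that band. Such drops occurred in THP1 for overlapping peaks at a fold of 4, and for peaks enriched over IgG at stricter thresholds. For folds with 1 replicate left out, staying within 1 SD was fixed in advance, since each of 2 values lies within 1 SD of their mean. None changed sign, which counts and folds over input listed only at 3 or more could not do. With the fold threshold raised to 4, the members called in both THP1 replicates dropped from 2 to 1, since TNFAIP3 has 3.71 in replicate 1. Counted from replicate 2, 5 MOLM13 member peaks overlapped the other replicate in place of 3, because the TNFAIP3 stretch is split more finely there. With IgG in place of input, the mean leading fold of NFKBIA was 4.71 in MOLM13 and 4.62 in THP1, and that of TNFAIP3 in MOLM13 4.67. With 1 replicate left out, the members called numbered 2 in MOLM13 and 2 to 3 in THP1, where replicate 1 alone adds REL. The leading fold ranged from 5.36 to 5.41 and from 5.22 to 5.68 for NFKBIA, and from 4.27 to 4.37 and from 3.71 to 5.16 for TNFAIP3, in MOLM13 and THP1. For 8 pairs of a member and a line no leading overlapping pair exists, so no alternative gives a value. No paired analysis was possible because the result comes from no test and the files hold comparisons already made per replicate. Read depth is unknown, so the precision of single folds cannot be given.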
